A study of Mus musculus with 12 samples.

Results

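Apolipoproteins are the proteins that wrap lipids into lipoprotein particles for transport in blood. Acetylation of histone H3 at lysine 9 (H3K9ac) was described here at 10 of their genes, Apoa1, Apoa2, Apoa4, Apoa5, Apob, Apoc1, Apoc2, Apoc3, Apoe and Apoh, of 21911 protein-coding genes in all. The genes were taken by name, and a peak was assigned to a gene when it overlapped the gene body or the 5 kb on either side of its start (GENCODE M21, mm10). Between 26 (F1 MB) and 37 (B6 replicate 1 and F1 BM) peaks of a library lay in these windows, of 11619 to 22968 peaks per library in all.

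Adult mouse livers were profiled for H3K9ac by ChIP-seq, in which chromatin fragments bound by an antibody are sequenced. The 6 libraries came from C57BL/6J (B6, 2 libraries, the strain of the reference genome), MSM/Ms (MSM, 2 libraries, an inbred strain of wild Japanese origin), the hybrid F1 BM (B6 dam, MSM sire, 1 library) and the reciprocal hybrid F1 MB (MSM dam, B6 sire, 1 library). The labels name no engineered allele and no treatment of the animals in any group. The 6 input libraries were not analysed here. The question addressed was how the acetylated regions at these genes compared between the strains and their hybrids.

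The lists differed in extent before any gene was considered. In B6 replicates 1 and 2, peaks covered 16.0 and 6.28 Mb, against 9.66 and 9.69 Mb in the MSM libraries, 12.3 Mb in F1 BM and a shorter 7.46 Mb in F1 MB. The parental extremes were the 2 libraries of B6. The lists hold no read counts and the read totals of the libraries were not used here, so the depth behind each value is not given, and a missing peak cannot be told from one too weak to be called. As a check of the tissue, the 8 hepatocyte markers that are not apolipoprotein genes all had a peak within 1 kb of the supported start in every list. The supported start is the most upstream start among principal transcripts with a consensus coding sequence and the highest support level, or the annotated start where a gene has none. In contrast, 0 of 5 stellate cell markers had a peak there in any list and only Csf1r of 6 Kupffer cell and macrophage markers did, in B6 replicate 1. In the lists for cholangiocytes (4 genes), lymphocytes (3) and enterocytes (4), the gut cells that also make apolipoproteins, 1 gene each had a start peak, Sox9 (7.19 fold), Ptprc (3.21) and Fabp2 (2.96), again in B6 replicate 1 alone. Of 4 genes listed as markers of other tissues, Gata4 went against the list, with a start peak of 2.97 to 11.9 fold in all 6 libraries, and the other 3 had none in any. Endothelial markers summed to a fold enrichment of 0 in B6 replicate 2 and F1 MB and to 14.6 to 28.5 in the other libraries, and their part in the results was not tested. In whole liver, fewer acetylated cells and less acetylation per cell cannot be told apart.

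H3K9ac is deposited on nucleosomes at active promoters and enhancers, and a promoter in use often shows a nucleosome-poor stretch at the start of transcription that is flanked by acetylated nucleosomes. The liver is the main source of plasma apolipoproteins. ApoB is the structural protein of very low density lipoproteins, ApoA-I and ApoA-II are the main proteins of high density lipoproteins, ApoE is a ligand of lipoprotein receptors, and ApoA-V and the small ApoC proteins act on lipoprotein lipase and particle uptake. Most of the genes lie in compact groups. Apoa1, Apoc3, Apoa4 and Apoa5 form the cluster on chromosome 9, and Apoe, Apoc1 and Apoc2, with Apoc4, form the cluster on chromosome 7. On chromosome 9 the annotated genes run from 46228580 to 46230466 (Apoa1, plus strand), 46232933 to 46235636 (Apoc3, minus), 46240696 to 46243459 (Apoa4, plus) and 46268633 to 46271919 (Apoa5, plus). On chromosome 7 they run from 19671579 to 19677941 (Apoc2), 19689481 to 19692660 (Apoc1) and 19696109 to 19699188 (Apoe), all on the minus strand. Apoa2 (chromosome 1, 171225054 to 171226379), Apob (chromosome 12, 7977648 to 8016835) and Apoh (chromosome 11, 108343354 to 108414396) stand alone on the plus strand.

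The sequences below show where the gaps between peaks lay at the promoters. RefSeq promoters were matched for 8 of the 10 genes (GRCm38.p6), and 4 are printed, each up to the base before the first annotated exon. Capitals mark the bases that no peak covered in the lists in which 2 neighbouring peaks left a gap at the start, which were all 6 lists for Apoa2, 5 for Apoa5, 3 for Apob and 3 for Apoe. Apoa2 is chr1:171224804-171225053 and Apoa5 chr9:46268383-46268632, Apob is chr12:7977427-7977647, all on the plus strand, and Apoe is chr7:19699189-19699438 on the minus strand.
Apoa2: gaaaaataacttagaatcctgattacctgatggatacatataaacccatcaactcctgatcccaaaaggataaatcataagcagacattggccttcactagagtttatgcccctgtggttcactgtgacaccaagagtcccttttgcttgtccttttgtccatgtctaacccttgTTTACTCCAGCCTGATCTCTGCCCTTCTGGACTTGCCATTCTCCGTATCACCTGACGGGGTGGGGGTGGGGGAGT
Apoa5: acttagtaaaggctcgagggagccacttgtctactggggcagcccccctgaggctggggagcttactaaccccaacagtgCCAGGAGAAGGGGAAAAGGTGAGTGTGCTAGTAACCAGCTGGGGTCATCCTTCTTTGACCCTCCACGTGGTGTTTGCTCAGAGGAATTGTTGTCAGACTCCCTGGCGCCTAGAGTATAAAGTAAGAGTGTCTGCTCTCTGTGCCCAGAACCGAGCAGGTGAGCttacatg
Apob: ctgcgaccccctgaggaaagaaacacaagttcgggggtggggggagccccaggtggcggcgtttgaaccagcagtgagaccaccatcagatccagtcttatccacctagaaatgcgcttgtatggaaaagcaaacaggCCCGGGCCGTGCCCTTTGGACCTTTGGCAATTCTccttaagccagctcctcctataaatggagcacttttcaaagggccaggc
Apoe: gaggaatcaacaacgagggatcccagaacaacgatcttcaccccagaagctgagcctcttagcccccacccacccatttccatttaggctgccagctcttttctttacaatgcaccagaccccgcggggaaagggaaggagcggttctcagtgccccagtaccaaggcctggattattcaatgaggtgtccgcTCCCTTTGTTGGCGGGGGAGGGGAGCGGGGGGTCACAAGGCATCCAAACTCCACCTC

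In the 250 bases before the RefSeq start, on both strands, the TATA box (TATAAA) was found at 3 of the 8 genes, Apoa2, Apoa5 and Apob, and in 12.4% of all 32851 promoters of the table. Counted from the RefSeq start, which at Apob lies 29 bases downstream of the GENCODE start, its first base lay at -56 in Apoa5, within the gap in capitals, at -60 in Apob, outside it, and at -212 in Apoa2, outside it. A C/EBP letter pattern (TTGCNNAA) lay at -90 in Apob on the minus strand, within the gap, and in 9.56% of all promoters. The letters CCAAT were found at Apoa2 (33.8% of all promoters). The GC box (GGGCGG) and the HNF4 letters CAAAGTCCA were found in 0 of the 8 windows, against 32.7% and 0.384% of all promoters.

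A peak within 1 kb of the annotated gene start was present in all 6 lists at 9 of the 10 apolipoprotein genes, against 23.6% of all protein-coding genes. The exception was Apoh, which encodes beta-2-glycoprotein I, a plasma protein that binds anionic phospholipids. Its annotated gene start lies 51939 bp upstream of its supported start, in the neighbourhood of the start of Prkca, and the peak there was missing from B6 replicate 2. At the supported start of Apoh a peak was present in all 6 lists, with fold enrichments of 15.0 and 6.26 in B6, 11.0 and 12.3 in MSM, and 11.7 and 8.99 in F1 BM and F1 MB. With supported starts, a choice made after the data were seen, all 10 genes had a start peak in all 6 lists, against 24.2% of all genes. At Apoc2 this count rests in MSM replicate 1 and F1 MB on the peak over its neighbour Apoc4 alone.

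**Figure D1:**
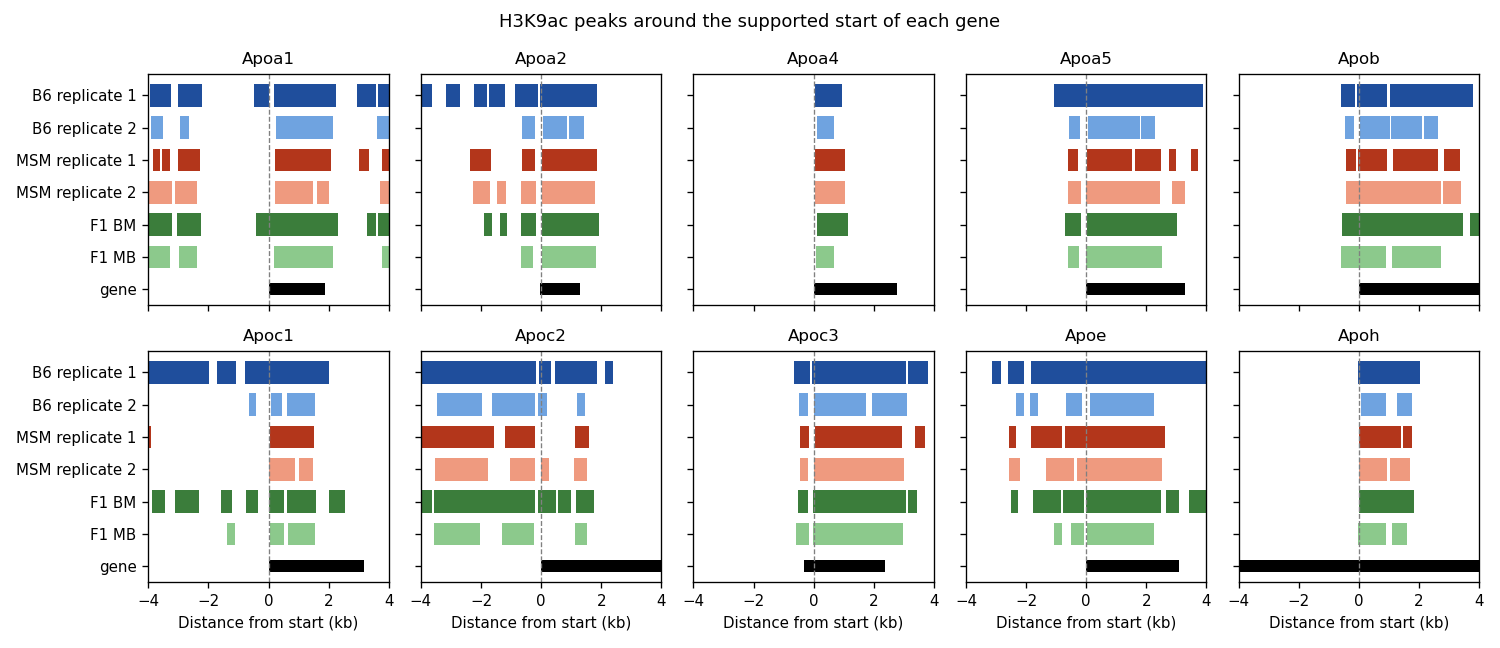
H3K9ac peaks (coloured bars, 1 row per library) within 4 kb of the supported start of each gene, with transcription running to the right and the annotated gene as a black bar; the horizontal axis is the distance from the start in kb. Within 2 kb of the start, more length lay under peaks downstream than upstream in all 6 lists at 9 of 10 genes, and an uncovered gap at the start is present in all 6 lists at Apoa2 and Apoc3.

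Apob, the structural gene, had a start peak among the strongest of every list. The fold enrichment was 13.0 and 11.3 in the B6 libraries, 11.5 and 21.4 in the MSM libraries, and 8.32 and 12.9 in F1 BM and F1 MB. Among all genes with a start peak in the same list, ranked by fold enrichment, this placed Apob at percentiles 90.9 and 98.9 in B6, 94.9 and 99.9 in MSM, and 96.1 and 98.9 in F1 BM and F1 MB. The strains overlapped. Acetylation was confined to the 5' end of the long Apob gene, with 6.32% to 9.99% of the window of 44188 bp under peaks. All Apob peaks of the 6 lists merged into 1 region of 4653 bp (chromosome 12, 7977055 to 7981707), of which 55.8% was covered in every list.

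Among the genes of high density lipoproteins, Apoa1 had start peaks of 12.7 and 5.96 fold in B6, 8.60 and 7.75 in MSM, and 6.57 and 7.22 in F1 BM and F1 MB. The MSM values lay between those of the B6 libraries. In every list the top of the Apoa1 peak lay inside the gene, 451 to 985 bp downstream of its start. At Apoa2 the start peaks reached 10.8 and 5.77 fold in B6, 7.70 and 8.84 in MSM, and 6.70 and 6.20 in F1 BM and F1 MB, and the strains again overlapped. The rank of the Apoa2 start peak ran from percentile 65.1 in B6 replicate 2 to 90.6 in F1 BM.

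Apoc3 encodes an inhibitor of lipoprotein lipase and of the uptake of triglyceride-rich particles. Its start peak was the steadiest in rank of the 10, at percentiles 93.2 and 98.6 in B6, 98.4 and 96.3 in MSM, and 99.4 and 94.1 in F1 BM and F1 MB. The fold enrichment was 13.8 and 11.0 in B6, 13.9 and 12.9 in MSM, and 11.2 and 9.75 in F1 BM and F1 MB. Apoa5, an activator of lipolysis by lipoprotein lipase, had values of 14.7 and 5.68 fold in B6, 9.20 and 11.9 in MSM, and 8.10 and 6.71 in F1 BM and F1 MB. Its percentile spread was wider, from 63.1 in B6 replicate 2 to 95.7 in F1 BM.

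Apoc2 encodes the activator of lipoprotein lipase. The highest peak within 1 kb of its start reached 15.2 and 6.95 fold in B6, 9.15 and 9.66 in MSM, and 9.17 and 4.85 in F1 BM and F1 MB. In all 6 lists the summit of that peak lay at -433 to -2660 bp from the Apoc2 start, in the acetylated region of 3877 bp over its neighbour Apoc4 (chromosome 7, 19678127 to 19682003). The Apoc2 gene itself held a separate region present in all 6 lists (19676068 to 19678038), with 8.50 and 3.65 fold in B6, 6.49 and 8.33 in MSM, and 5.84 and 5.19 in F1 BM and F1 MB. The annotated gene Gm44805 overlaps Apoc2 and Apoc4, and peaks cannot be assigned to a single one of these genes.

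Apoc1, a small exchangeable apolipoprotein, had start peaks of 10.7 and 5.56 fold in B6, 6.30 and 7.41 in MSM, and 6.37 and 7.77 in F1 BM and F1 MB. The summit lay at nearly the same position in every list, 222 to 268 bp downstream of the start. Apoe had 8.10 and 8.74 fold in B6, 6.41 and 10.1 in MSM, and 8.15 and 5.24 in F1 BM and F1 MB. Its rank differed between libraries of the same strain, at percentiles 60.5 and 94.1 in B6 and 58.8 and 89.0 in MSM, with 95.8 in F1 BM and 50.9 in F1 MB. Apoa4, which in mice is made in the intestine and the liver, had the weakest start peak in B6 replicate 2, MSM replicate 2 and F1 BM. Its fold enrichment was 8.64 and 3.68 in B6, 7.56 and 4.85 in MSM, and 4.11 and 5.19 in F1 BM and F1 MB. Its percentile ranged from 13.8 in B6 replicate 2 to 73.7 in MSM replicate 1, so that libraries of a strain differed more than the strains did.

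The strains were compared in the rank of the start peak at annotated gene starts, among the genes with a start peak in the same list. At supported starts this set ran from 6275 genes in B6 replicate 2, the shortest list, to 9879 in B6 replicate 1, the longest, so the rank does not remove the difference in list length, and it was also taken among the 5166 genes with a peak at the annotated start in all 6 lists, a choice made after the data were seen. At 0 of the 9 genes tested were both libraries of a strain above both of the other, by either rank. Of the 5579 genes that could be tested, 18.6% had both B6 libraries higher and 16.7% both MSM libraries higher, and among the 5166 genes it was 19.1% and 18.9%. With equal covered length in every list both B6 libraries lay higher at 1 of 9 genes, Apoc2, against 16.1% of all genes tested. With peaks counted only where at least 50% of the peak overlapped the window, both MSM libraries lay higher at 1 of 5 genes, Apoc2, against 16.0%. The difference in mean percentile, MSM minus B6, ran from -7.06 at Apoc1 (pooled SD 12.1) to 12.0 at Apoa4 (pooled SD 34.1). It was within the pooled SD of the replicates at all 9 genes, and the lowest p was 0.667 (two-sided exact permutation test, n = 2 per strain, smallest p possible 0.333). The rank lay above the range of the parental libraries in F1 BM at 7 of the 9 genes and below it at 0, against 18.8% and 17.7% of the 5166 genes. In F1 MB it lay above the range at 1 gene, Apoc1, and below it at 2, Apoc2 and Apoe, against 15.1% and 24.6% of those genes. Ranked among the 5166 genes, F1 BM lay above at the same count of 7 and below at 0, against 18.9% and 19.6%, and F1 MB above at Apoc1 and below at Apoa2 and Apoc2, against 19.3% and 19.5%. The fold enrichment itself gave another tally. By fold, F1 BM lay above the parental range at 0 of the 9 genes and below it at 1, Apob, against 0.348% and 62.3% of the 5166 genes, and its list had the lowest median fold of the 6 (3.38 against 4.49 to 5.23). F1 MB lay above at 0 and below at 3, Apoc2, Apoc3 and Apoe, against 2.85% and 30.4%. Each hybrid was a single library, and these positions were not tested.

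**Figure D2:**
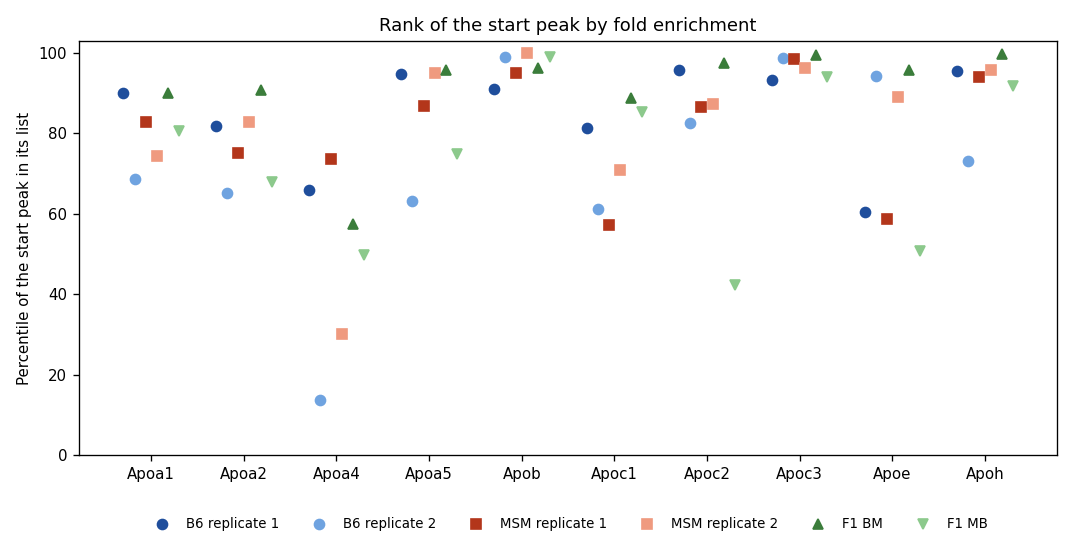
Percentile of the start peak (supported start) by fold enrichment among all genes with a start peak in the same list, 1 point per library. Apob stays between 90.9 and 99.9 and Apoc3 between 93.2 and 99.4, and Apoa4 runs from 13.8 to 73.7.

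The length of each gene window that lay under peaks was large for these genes. Some windows also take in peaks at neighbouring genes, namely Prkca (window of Apoh), Zpr1 (Apoa5), Tomm40l (Apoa2), Tomm40 (Apoe) and Apoc4 (Apoc2). These lengths are therefore not those of the apolipoprotein genes alone. The median of the 10 genes was 5097.5 and 2705 bp in B6, 3412 and 3293 bp in MSM, and 4172 and 2959 bp in F1 BM and F1 MB. Over the 11446 genes with a peak in the window of any parental list the medians were 1089, 345, 599, 612.5, 681 and 457 bp in the same order. Covered length was also ranked in each list among the genes with a peak in the window in that list, a set that differs between lists. By this rank the median percentile of the 10 genes stood between 94.8 and 96.5 in all 6 lists. Apoa4 was the exception, at percentiles 50.1 to 65.3.

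Apoe had 7428 and 3186 bp under peaks in B6, 4601 and 4153 bp in MSM, and 5675 and 2944 bp in F1 BM and F1 MB. Apoc1 had 6661 and 2261 bp in B6, 2576 and 2346 bp in MSM, and 4920 and 2392 bp in F1 BM and F1 MB. In both genes the MSM values fell between the B6 values. The windows of Apoc1 and Apoe overlap, as do those of Apoa1 and Apoc3 and those of Apoc3 and Apoa4. Some peaks therefore enter the lengths of neighbouring genes, and these genes are not independent. Apoa1 had 6928 and 3814 bp in B6, 4772 and 5207 bp in MSM, and 6475 and 4781 bp in F1 BM and F1 MB. Apob had 4201 and 2791 bp in B6, 3345 and 3735 bp in MSM, and 4413 and 3101 bp in F1 BM and F1 MB. F1 BM lay above the parental range at 1 of the 10 genes, Apob, and below it at 0, against 13.3% and 4.94% of the 11446 genes. F1 MB lay above it at 0 and below it at 2, Apoc2 (2974 bp) and Apoe, against 1.25% and 18.7%.

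The strains overlapped in covered length at all 10 genes. Both libraries of 1 strain exceeded both of the other at 0 of 10 genes in either direction, against 11.6% of all genes tested with B6 higher and 4.97% with MSM higher. The mean difference, MSM minus B6, ran from -2000 bp at Apoc1 (pooled SD 2203) to 143.5 bp at Apoa4 (pooled SD 259), and was within the pooled SD at all 10 genes. The two-sided exact permutation p was 0.667 at Apoc2 and Apoc3 and 1 at the other 8 genes (n = 2 per strain). The median difference was -525.25 bp over the 10 genes and -123.5 bp over all genes tested. B6 replicate 1 gave the greatest length of the 6 lists at 9 of the 10 genes, and B6 replicate 2 the smallest at 7. They were the longest and shortest lists. Over all genes tested their medians, 1089 and 345 bp, were also the highest and lowest of the 6. The shares of all genes with these extremes are not given here. Without B6 replicate 2, the remaining B6 library lay above both MSM libraries at all 10 genes, as at 84.1% of all genes tested. Without B6 replicate 1 the remaining B6 library lay below both at 8 of the 10 and at 54.6% of all genes tested. Without MSM replicate 1 the B6 libraries lay above the remaining MSM library at 2, Apoc2 and Apoc3, against 17.7% of all genes tested. F1 BM exceeded F1 MB at all 10 genes. Its list covered more of the genome (12.3 against 7.46 Mb), and the medians over all genes tested were 681 and 457 bp. The share of all genes with F1 BM higher is not given here, so this count has no background to be read against.

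**Figure D3:**
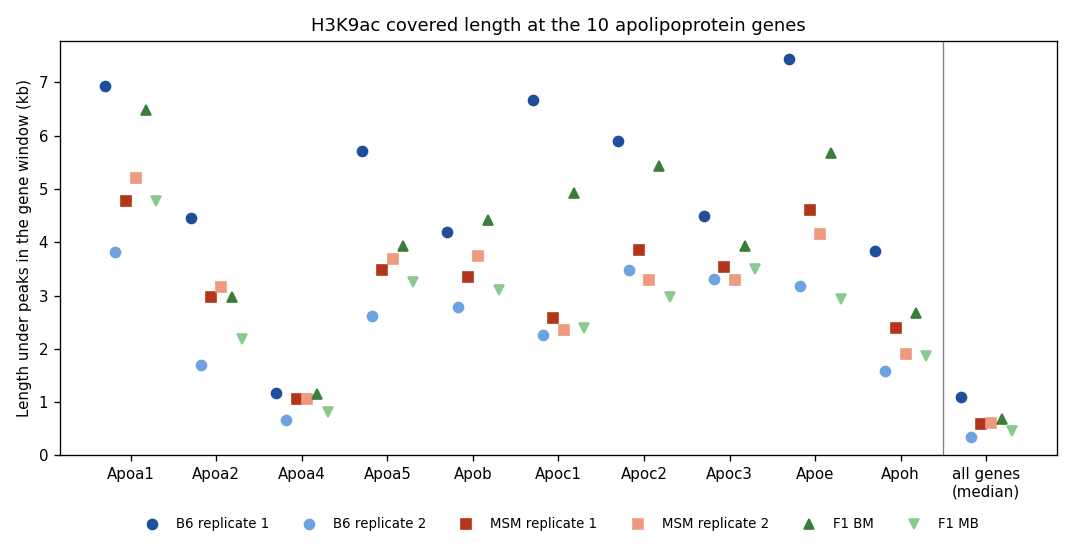
Length under H3K9ac peaks in the window of each apolipoprotein gene (kb), 1 point per library, with the median of all genes tested at the right. B6 replicate 1, the longest list, gives the greatest length at 9 of 10 genes and B6 replicate 2, the shortest, the smallest at 7. Their medians over all genes tested, 1089 and 345 bp, are also the highest and lowest of the 6.

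Acetylation extended over much of the body of the short apolipoprotein genes. At least 50% of the gene body lay under peaks in all 6 lists at 5 of the 10 genes, Apoa1, Apoa2, Apoa5, Apoc3 and Apoe, against 1.21% of the 5295 genes with a peak at the supported start in all 6 lists. Gene length enters this share, and 7 of the 10 genes were at most 5 kb long. Among genes of at most 5 kb, it was 5 of 7 apolipoprotein genes against 10.3% of 595 genes. The 5 genes were the same with any of the 6 libraries left out, with lists shortened to equal number of peaks or equal length, and with the stricter threshold on q. Over these settings the share of all genes with a peak at the supported start in the lists used was 1.19% to 1.86%.

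Apoa2 had 99.5% and 86.7% of its body under peaks in B6, 95.7% and 96.2% in MSM, and 95.3% and 96.0% in F1 BM and F1 MB. Apoc3 had 97.6% and 86.5% in B6, 92.4% and 93.2% in MSM, and 93.8% and 95.4% in F1 BM and F1 MB. Coverage of these genes was thus high in every library, including the shortest list. Apoa1 ranged from 81.0% in MSM replicate 2 to 100% in F1 BM. Apoe ranged from 69.4% in B6 replicate 2 to 100% in B6 replicate 1, and Apoa5 from 66.2% to 100% in the same libraries. The other genes up to 5 kb were less covered, with 40.7% to 63.6% at Apoc1 and 20.9% to 38.0% at Apoa4. The longer genes were lowest, with 6.36% to 31.6% at Apoc2, 6.33% to 9.80% at Apob and 2.24% to 5.03% at Apoh. The median over all 5295 genes was 2.33% to 4.85%.

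**Figure D4:**
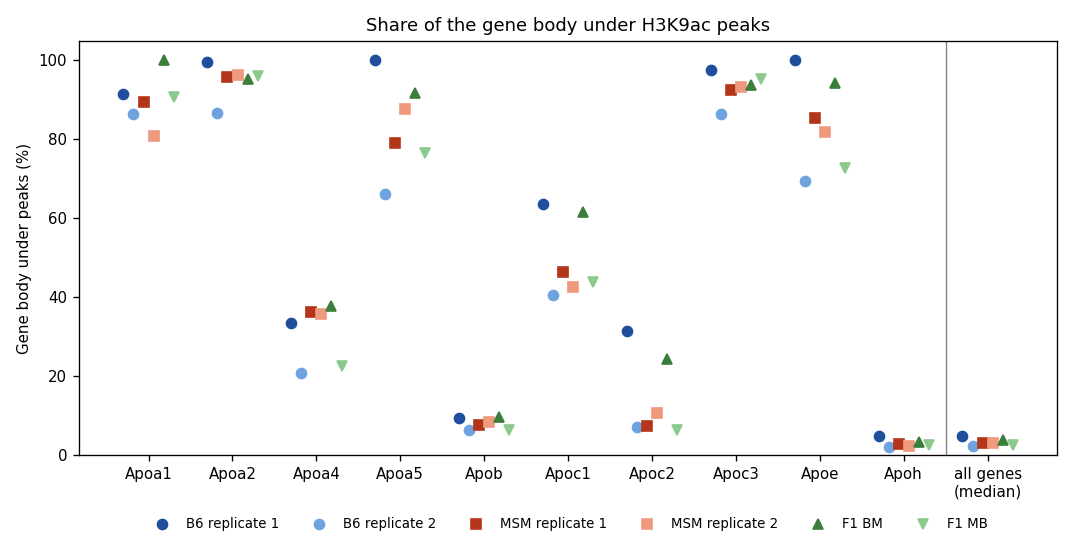
Share of each gene body under H3K9ac peaks (%), 1 point per library, with the median of all genes with a start peak in every list at the right. Apoa1, Apoa2, Apoa5, Apoc3 and Apoe lie at 66.2% or more in all 6 libraries.

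Peaks lay more on the transcribed side of the start. The 2 kb downstream of the supported start held more length under peaks than the 2 kb upstream in all 6 lists at 9 of the 10 genes, against 64.7% of the 5295 genes with a peak at the supported start in all 6 lists. At Apoa4 the upstream 2 kb held 0 bp under peaks in every list and the downstream 2 kb 578 to 1049 bp. At Apoh the upstream side held at most 15 bp and the downstream side 1350 to 2000 bp. Apoc2 ran the other way in every list, with a downstream minus upstream difference of -160 to -1098 bp, its upstream side being that of Apoc4.

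At the starts themselves, a gap was counted when 2 neighbouring peaks lay at most 500 bp apart and the gap met the stretch from 300 bp upstream to 100 bp downstream of the supported start. Apoa2 and Apoc3 had such a gap in all 6 lists, 2 of the 10 genes against 7.10% of the same 5295 genes. The Apoa2 gap was 81 and 265 bp long in B6, 232 and 187 bp in MSM, and 205 and 307 bp in F1 BM and F1 MB. The bases uncovered in every list ran from -103 to -23 relative to the start, 81 bases, of which 75 are the capitals printed for Apoa2. The Apoc3 gap was 65 and 187 bp in B6, 205 and 183 bp in MSM, and 167 and 125 bp in F1 BM and F1 MB, and its shared part ran from -118 to -54. At both genes the gap of B6 replicate 1 was the shortest and the strains overlapped.

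Apoa5 had a gap in 5 lists, all but B6 replicate 1, in which a single peak of 4946 bp crossed the start. Apoc2 had one in 4 lists, Apob and Apoe in 3, Apoc1 in 2 and Apoa1 in 1. Apoa4 and Apoh had none in any list.

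The chromosome 9 cluster, from Apoa1 to Apoa5 with 5 kb flanks (46223580 to 46276919, 53340 bp), had 18339 and 9609 bp under peaks in B6, 12934 and 13966 bp in MSM, and 16025 and 12386 bp in F1 BM and F1 MB. The MSM minus B6 difference was -524 bp with a pooled SD of 4395 bp (two-sided exact permutation p = 1, n = 2 per strain), so the strains did not separate. Without B6 replicate 1 the difference turned to 3841 bp. The chromosome 7 cluster (19666579 to 19704188, 37610 bp) had 18740 and 8760 bp in B6, 10459 and 9374 bp in MSM, and 15235 and 8125 bp in F1 BM and F1 MB. There the difference was -3833.5 bp with a pooled SD of 5019 bp (exact permutation p = 1), and it turned to 1156.5 bp without B6 replicate 1. With equal covered length in every list it was -2808.5 bp and both B6 libraries lay above both MSM libraries (exact permutation p = 0.333, the smallest possible).

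Merging the peaks of all 6 lists gave 41 regions over the clusters and the windows of the single genes. Of these, 17 were found in all 6 lists, a share of 41.5% against 25.3% of 27334 regions in the genome. The chromosome 9 cluster held 17 regions, 9 of them in all 6 lists, and the chromosome 7 cluster 13, 4 of them in all 6. Of the 10 regions found in a single list, 9 were those of B6 replicate 1, the longest list (22968 peaks). The share of that library among such regions in the genome is not given here. Of the 41, 1 region was present in both B6 lists and absent from both MSM lists, against 3.06% of regions in the genome. It lay in an intron of Apoh (chromosome 11, 108385551 to 108386236), with 3.30 and 2.44 fold in B6 and 3.03 in F1 BM, and no peak in F1 MB. The reverse held for 0 of the 41 regions, against 3.08% in the genome.

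Outside the genes of the chromosome 9 cluster, 3 intergenic regions were acetylated in all 6 lists. A region at -11211 bp from the Apoa5 start (46256901 to 46258404) had 7.31 and 2.62 fold in B6, 4.28 and 5.78 in MSM, and 7.26 and 4.44 in F1 BM and F1 MB. A pair of regions lay at -3674 and -2824 bp from the Apoa1 start (46224315 to 46225368 and 46225483 to 46226368). They had 2.79 to 6.95 and 2.86 to 6.60 fold. The 114 bp between them (chr9:46225369-46225482, plus strand) were covered in none of the 6 lists. This stretch is shown because, where every list had flanking peaks at most 1 kb apart, it was the longest of 3 stretches uncovered in all 6 lists, the other two being those at the starts of Apoa2 and Apoc3.
Gap upstream of Apoa1: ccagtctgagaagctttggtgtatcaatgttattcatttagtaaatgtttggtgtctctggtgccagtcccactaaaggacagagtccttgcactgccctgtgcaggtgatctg

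**Figure D5:**
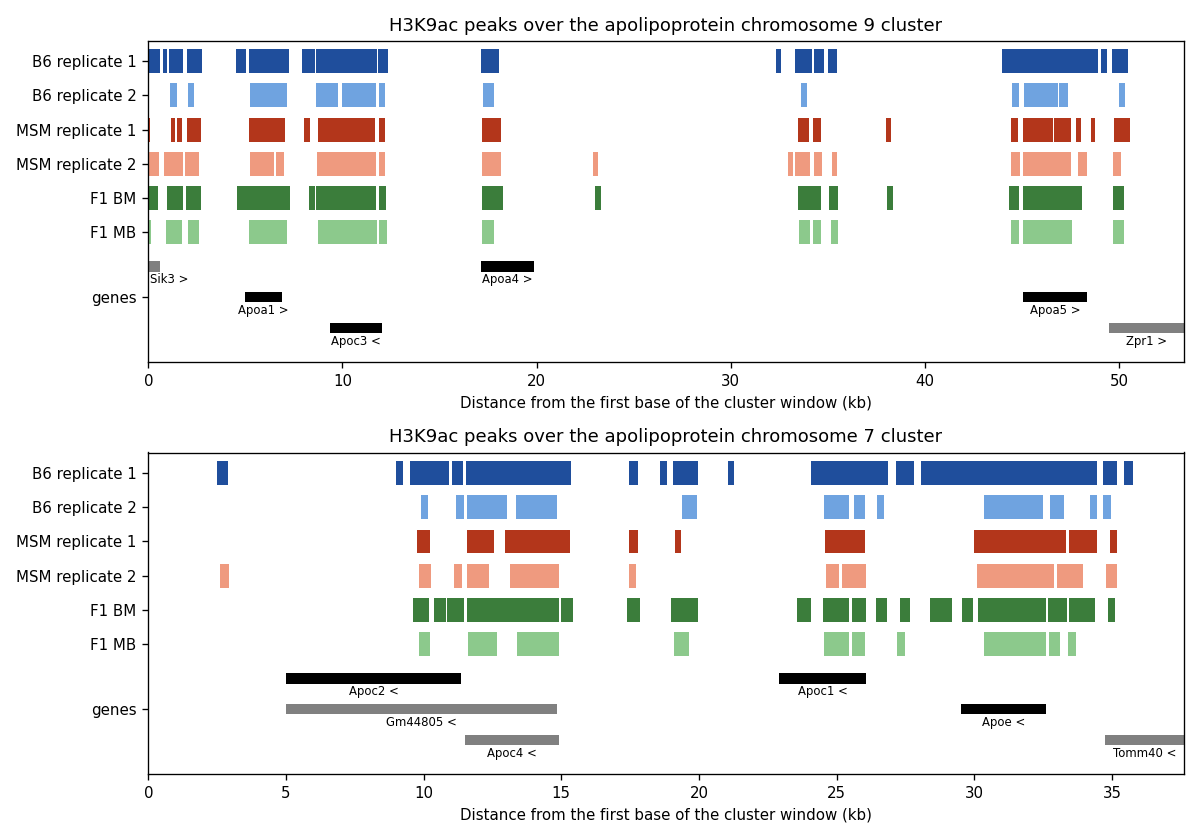
H3K9ac peaks (coloured bars, 1 row per library) along the chromosome 9 and chromosome 7 clusters as distance from the first base of each window (kb), with apolipoprotein genes in black, other protein-coding genes in grey and arrowheads for the direction of transcription. Of the merged blocks, 9 on chromosome 9 and 4 on chromosome 7 recur in all 6 libraries. In B6 replicate 1 alone, the longest list, 6 are found.

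Of 47 other genes of lipoprotein assembly, uptake, lipolysis and their regulation, 33 had a peak within 1 kb of the supported start in all 6 lists (70.2%, against the 24.2% above) and 5 had none in any. Among the highest mean percentiles of the start peak were those of Ppara, a nuclear receptor of fatty acids (98.2), and Apoc4 (96.6). Of 44 genes that could be tested for covered length, 6 had both B6 libraries higher and 6 had both MSM libraries higher, against the 11.6% and 4.97% of all genes. Without B6 replicate 2 the count with B6 higher was 34, against the 84.1% of all genes, and without B6 replicate 1 the count with MSM higher was 32, against the 54.6%. The median difference of the list, MSM minus B6, was 58.5 bp.

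The 6 with B6 higher were Lrp1, Sort1, Scarb1, Lipc, Angptl8 and Nr1h2. Lrp1, an endocytic receptor of ApoE-rich particles, had 7499 and 4017 bp in B6, 2338 and 2725 bp in MSM, and 4764 and 2656 bp in F1 BM and F1 MB. Scarb1, the receptor of high density lipoproteins, had 7217 and 2366 bp in B6, 1866 and 1822 bp in MSM, and 4220 and 4052 bp in F1 BM and F1 MB. The difference exceeded the pooled SD at both genes (-3226.5 against 1752 bp at Lrp1 and -2947.5 against 2426 bp at Scarb1), with an exact permutation p of 0.333, the smallest possible. Both outcomes follow from choosing genes whose strains did not overlap, and they add nothing to that choice. Without B6 replicate 1 it was -1485.5 bp at Lrp1 and -522 bp at Scarb1, and without B6 replicate 2 -4967.5 and -5373 bp. Sort1 had 468 and 319 bp in B6 and 0 bp in the MSM and F1 lists, with no peak within 1 kb of its supported start.

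Those with MSM higher included Apon, Sar1b, Mylip, Abcg1 and Creb3l3. The strains were barely apart at Apon, with 2521 and 1604 bp in B6 against 2569 and 2523 bp in MSM. Mylip had 388 and 0 bp in B6 and 498 and 1165 bp in MSM. Abcg1 had 249 and 0 bp in B6 and 325 and 285 bp in MSM. At Mylip and Abcg1, B6 replicate 2 thus had no peak in the window. Sar1b, needed for the export of ApoB particles from the endoplasmic reticulum, had 4853 and 2685 bp in B6, 5346 and 5349 bp in MSM, and 4654 and 3540 bp in F1 BM and F1 MB. Creb3l3, a hepatic transcription factor of triglyceride metabolism, had 1681 and 1434 bp in B6, 1867 and 1857 bp in MSM, and 1534 and 1616 bp in F1 BM and F1 MB. None of the Creb3l3 peaks lay within 1 kb of its supported start in any list. The difference exceeded the pooled SD at both Sar1b and Creb3l3, at 1578.5 against 1084 bp and 304.5 against 124 bp, and the exact permutation p was again 0.333. As above, both outcomes follow from the choice of genes without overlap. Without B6 replicate 2 the differences were 494.5 bp at Sar1b and 181 bp at Creb3l3, and without B6 replicate 1 2662.5 and 428 bp.

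Among 5285 other genes with a start peak in all 6 lists, those whose percentiles lay closest to the median profile of the 10 apolipoprotein genes were Cebpb, Srp19, Cth, Rab1b and Etfbkmt, at Euclidean distances of 10.2 to 13.1 percentile points over the 6 lists. Cebpb stood at percentiles 86.0 and 78.4 in B6, 80.7 and 87.7 in MSM, and 98.8 and 79.4 in F1 BM and F1 MB. The median of the apolipoprotein genes was 90.5 and 70.9 in B6, 84.7 and 88.1 in MSM, and 95.8 and 77.8 in F1 BM and F1 MB.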

How the data were processed

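H3K9ac ChIP-seq was read in 6 liver libraries, grouped by the sample titles. Per the methods and the submitters' processing notes, the authors trimmed 50-bp read pairs with Trim Galore and mapped them to mm10 (Bowtie 2 in the methods, HISAT2 in the notes). The notes also list SAMtools and MACS2, and the peak threshold and the control used are not given in the sources used here. The reference is that of B6, so MSM reads over diverged sequence could be lost. The authors deposited 1 peak list per library, not pooled. For each peak the deposited lists give a fold enrichment (a linear ratio over the caller's background), the −log10 of the p-value and of the q-value, a score derived from the latter and the summit position. The lowest deposited −log10 q was 1.30 to 1.35 per list.

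From these lists the length under peaks in each gene window, the highest fold within 1 kb of the start with its percentile in the list, gaps between peaks and merged regions (overlap of at least 1 bp) were computed with Python 3.11.15, numpy 2.4.6 and pandas 2.3.3, and checked on simulated data. Reference bases were read with samtools 1.23.1, and figures drawn with matplotlib 3.10.9. The 10 genes and all gene lists were chosen with earlier results of these data known. The genes named in the text were all 10 apolipoprotein genes, the lipoprotein genes without overlap between the strains (at most 6 per direction) and the 4 of highest mean percentile, and the 5 genes most like the median profile. Some items that this rule or the motif list selects are not reported here. Coverage of the gene body, the comparison of the sides of the start, gaps and merged regions were measures added after the data were seen. The 4 parental libraries were compared by exact permutation (two-sided, 6 assignments of libraries to strains), which cannot give a p under 0.333. The parental libraries came from separate mice, and p-values measure the spread between these mice only. Alternatives were equal numbers of peaks, equal covered length, a −log10 q of at least 5, windows without the gene body, smaller windows, overlap of at least 50% of the peak, each library left out, a replicate block and, added after the data were seen, supported transcript starts and ranks among the genes with a start peak in all 6 lists.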

Additional observations from a re-analysis of the deposited data

How the results depend on the processing

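No strain difference could pass a threshold with 2 libraries against 2, so the alternatives bear on direction and on counts. Directions of covered length turned in 8 of 70 combinations of gene and setting that kept all libraries. Some of these combinations could not turn. A gene of at most 5 kb has the same window without its body, and at most of the genes the supported start is the annotated start. With equal covered length in every list the difference, MSM minus B6, was 327.5 bp at Apoa1, 97 bp at Apoa2, -16 bp at Apob and 47.5 bp at Apoh, and with equal numbers of peaks it was 447.5 bp at Apoa2 and -252.5 bp at Apob. Smaller windows gave 202.5 bp at Apoa2 and 143 bp at Apoe. The start peak percentile turned at Apoe with equal covered length (7.61) and at Apoc2 with the 50% overlap (37.3). At Apoc2 the strains did not overlap in that percentile with equal covered length (-5.80, B6 higher, as at 16.1% of all genes tested) or with the 50% overlap (MSM higher, as at 16.0%). In the chromosome 7 cluster they did not overlap with equal covered length (-2808.5 bp). Ranks among the genes with a start peak in all 6 lists turned no direction. The cause was not tested.

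Leaving out each parental library in turn moved the covered length difference from -1938.5 to 1175.5 bp at Apoa1, -1380 to 1372 at Apoa2, -115.5 to 402.5 at Apoa4, -2118.5 to 966.5 at Apoa5, -661 to 749 at Apob, -4200 to 200 at Apoc1, -2323 to 88 at Apoc2, -1075 to 99 at Apoc3, -3051 to 1191 at Apoe and -1688.5 to 563.5 at Apoh. It moved the chromosome 9 cluster from -4889 to 3841 bp and the chromosome 7 cluster from -8823.5 to 1156.5 bp. The percentile difference moved from -11.4 to 9.74 at Apoa1, -2.81 to 13.9 at Apoa2, -14.0 to 38.0 at Apoa4, -3.90 to 27.5 at Apoa5, -1.45 to 6.24 at Apob, -17.1 to 2.98 at Apoc1, -8.79 to 4.26 at Apoc2, -1.14 to 3.98 at Apoc3 and -20.3 to 13.3 at Apoe.

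Apolipoprotein genes without overlap between the strains numbered 0 to 10 with B6 higher and 0 to 8 with MSM higher when a library was left out, and the lipoprotein genes 6 to 34 and 6 to 32, while the share of all genes ran from 11.7% to 84.1% and from 5.03% to 54.6%. With B6 higher there was 1 gene with equal numbers of peaks (Apoc3, against 19.3% of all genes), 2 with equal covered length (Apoa5 and Apoc3, against 15.6%), 2 with smaller windows (Apoc1 and Apoc2, against 11.7%) and 1 with the 50% overlap (Apoc1, against 11.6%). With MSM higher there was 1 with smaller windows and 1 with the 50% overlap, Apoa4 in both, against 5.02% and 5.03%. Equal covered length gave 10 lipoprotein genes with MSM higher, against 17.5% of all genes. The 50% overlap left 5 of the 10 genes with a start peak in all 6 lists, against 21.4% of all genes. With each parental library left out, 9 to 10 genes had one in all remaining lists. That count requires a peak in fewer lists, and the share of all genes is not given here, so it has no background to be read against.

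A replicate block, pairing libraries by replicate number, cannot move a difference in a balanced design (-524 bp for the chromosome 9 cluster and -3833.5 bp for the chromosome 7 cluster). Its exact sign-flip p was 1 for both, and 0.5 is the smallest it can give. The labels do not say that a number marks a shared animal or batch. Over the 10 genes the deviations of same-numbered libraries correlated at 0.162.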
